A study of Homo sapiens with 6 samples.

Results

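The 10 genes described here encode the DNA topoisomerases II and the subunits of condensin: TOP2A, TOP2B, SMC2, SMC4, NCAPH, NCAPD2, NCAPG, NCAPH2, NCAPD3 and NCAPG2. They were taken by exact gene name from the 26906 rows of a table of normalised read counts, and all 10 had a row. The RNA came from BE-(2)-C, a human neuroblastoma cell line that carries amplified MYCN, grown in serum. One group of cells received an siRNA against ELF4, which is an ETS-family transcription factor. The other group received a control siRNA. RNA was taken at 48 hours, selected for polyA tails and sequenced, with 3 libraries in each group. The series title ties ELF4 to miR-124, to proliferation and to the undifferentiated state. All libraries come from a single cell line, and the labels do not say whether the replicates were separate cultures, so the spread behind each p-value may be technical.

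Topoisomerase II passes one DNA duplex through a transient break in another and so untangles chromosomes. TOP2A is made mainly by dividing cells and acts on mitotic chromosomes, and TOP2B is made in dividing and postmitotic cells alike, neurons included. Condensin is a ring-shaped motor that folds chromatin into loops as cells enter mitosis. Its ATPase arms, SMC2 and SMC4, are shared by 2 complexes. Condensin I adds the kleisin NCAPH with the HEAT-repeat subunits NCAPD2 and NCAPG, and condensin II adds NCAPH2 with NCAPD3 and NCAPG2. Condensin II is nuclear through interphase and condensin I meets the chromosomes after the nuclear envelope breaks down.

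Of these genes, 9 of 10 fell after ELF4 siRNA, against 24.4% of all tested genes and 37.7% of those with a mean of at least 1000. Their promoters are shown first, for the letters they share. RefSeq (GRCh38.p14) gave 13 windows of 300 bases, each running from 250 bases before to 50 bases after an annotated start, for 9 of the 10 genes. NCAPH2 was not among them. The cell cycle genes homology region (CHR, searched as TTTGAA or TTCGAA) and the CCAAT box are elements known from promoters of genes expressed in G2 and mitosis. Each was searched on both strands, and in the sequences that follow capitals mark every CHR or CCAAT match on either strand. These 4 windows are printed because each holds a CHR match together with at least 2 CCAAT matches.
TOP2A, chr17:40417847-40418146, minus strand: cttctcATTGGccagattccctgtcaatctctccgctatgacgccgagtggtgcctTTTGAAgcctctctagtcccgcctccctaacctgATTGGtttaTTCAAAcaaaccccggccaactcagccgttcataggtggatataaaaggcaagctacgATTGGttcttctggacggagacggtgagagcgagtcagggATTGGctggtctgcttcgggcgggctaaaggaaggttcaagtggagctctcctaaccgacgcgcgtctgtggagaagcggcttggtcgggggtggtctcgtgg
NCAPD2, chr12:6493852-6494151, plus strand: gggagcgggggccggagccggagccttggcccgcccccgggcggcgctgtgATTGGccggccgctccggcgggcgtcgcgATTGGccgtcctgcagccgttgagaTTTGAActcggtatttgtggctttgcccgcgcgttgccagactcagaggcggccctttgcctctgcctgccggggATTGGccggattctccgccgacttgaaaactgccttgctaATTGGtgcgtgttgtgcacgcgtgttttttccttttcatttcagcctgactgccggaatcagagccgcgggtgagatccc
NCAPD3, the second annotated start, chr11:134223918-134224217, minus strand: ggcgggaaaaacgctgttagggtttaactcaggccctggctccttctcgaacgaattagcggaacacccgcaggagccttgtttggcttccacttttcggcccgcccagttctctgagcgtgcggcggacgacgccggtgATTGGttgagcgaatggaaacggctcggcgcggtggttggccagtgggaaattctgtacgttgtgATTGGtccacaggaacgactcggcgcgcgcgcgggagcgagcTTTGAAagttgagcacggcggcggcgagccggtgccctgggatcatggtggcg
TOP2B, the first annotated start, chr3:25664858-25665157, minus strand: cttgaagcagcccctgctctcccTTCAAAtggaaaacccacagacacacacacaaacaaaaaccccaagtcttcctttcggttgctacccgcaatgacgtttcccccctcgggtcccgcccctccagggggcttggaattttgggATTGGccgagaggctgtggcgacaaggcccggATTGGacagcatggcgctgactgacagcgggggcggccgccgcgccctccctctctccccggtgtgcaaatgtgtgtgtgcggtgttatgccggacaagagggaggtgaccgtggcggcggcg
TOP2A and NCAPD2 each had 4 CCAAT matches, a number reached in 1.21% of the 27305 genes with a window. At least 1 CCAAT match was common, in 5 of the 9 members, against 39.7% of all genes and 42.9% of tested genes. TOP2A had 2 CHR matches and the other 3 windows had 1 each.

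A CHR match stood in a window of 8 of the 9 genes, against 19.5% of all genes with a window and 15.7% of the 10281 genes that were both tested for a change and had one. NCAPH was the gene without a CHR match, and it had 1 CCAAT match. By window, 8 of 13 held a CHR match, against 16.4% of all 35116 windows. A CHR match with at least 2 CCAAT matches occurred in 4 of the 9 genes, against 2.35% of all genes. TOP2B, which did not pass the test for a change, was among these 4, so the pair of motifs did not separate the genes that fell from the gene that did not. The ETS core CCGGAAG was found in the window of NCAPG alone among the 9 genes, against 12.2% of all genes and 21.0% of tested genes. An E2F word (TTTCCCGC, TTTCGCGC, TTTGCCGC or TTTGGCGC) was found in the second window of NCAPD3 alone, against 3.99% of all genes and 6.36% of tested genes. None of these matches overlapped another, and a match is a description of letters, not a binding site.

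**Figure D1:**
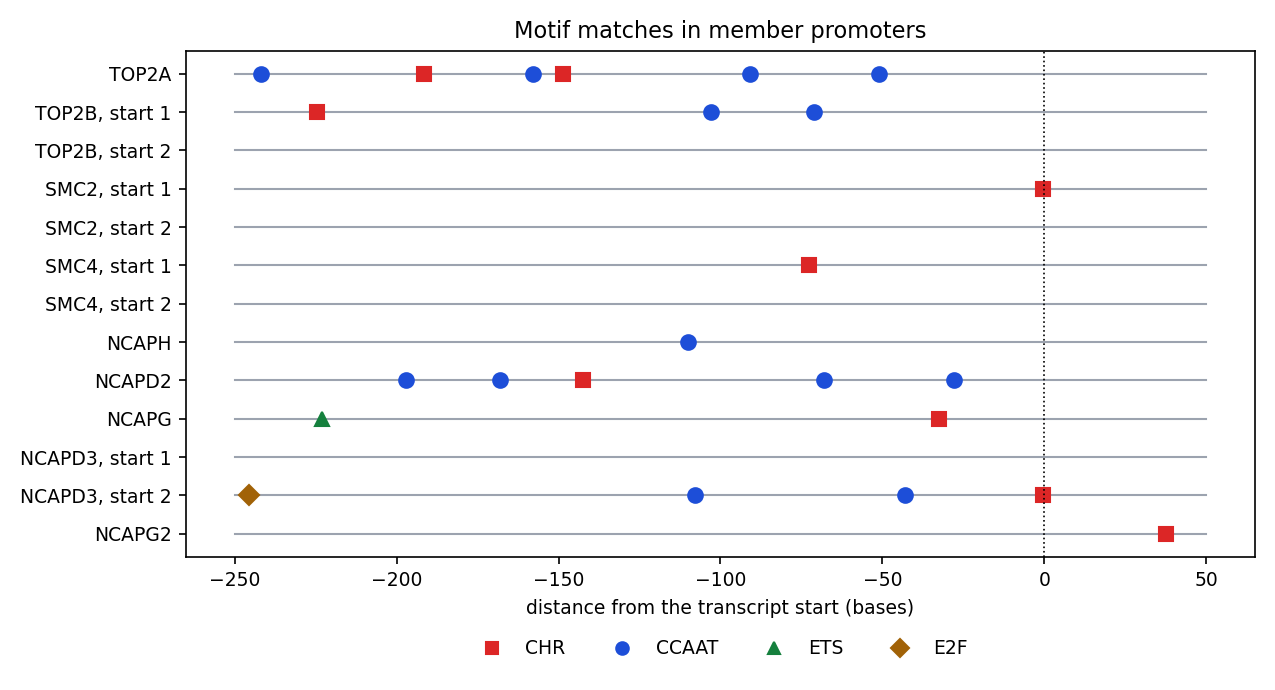
Motif matches (CHR, CCAAT, ETS and E2F, both strands) in the 13 promoter windows of 9 members, plotted by distance in bases from the annotated transcript start (dotted line). CHR squares appear in windows of 8 genes, and TOP2A and NCAPD2 each carry 4 CCAAT circles.

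Reads assigned to genes, as recovered from the normalised counts, numbered 23148635 to 38097986 per library. ELF4 itself, the check of the siRNA, had 5.51, 5.61 and 3.10 normalised reads in ELF4 siRNA libraries, against 42.4, 38.8 and 46.8 in control siRNA libraries, which is 11.1% of control. Of 20339 genes tested with limma on log2(normalised count + 1), 4956 fell (24.4%) and 4217 rose (20.7%) at an adjusted p under 0.05, with a median log2 fold change of 0.00. Upper-quartile scaling moved that split to 3597 fell and 5939 rose. All 10 members passed the filter on low values. Against that background, 9 of the 10 fell, 0 rose and 1 was not called, and the median log2 fold change of the 10 was -0.47. Among the 5682 tested genes with a mean of at least 1000, where all 10 members lie, 37.7% fell. In 9 of the 10 every ELF4 siRNA library lay below every control siRNA library, which held for 28.2% of tested genes. That share includes low genes and was not taken among those with a mean of at least 1000. In RNA from whole cultures, fewer cells in division and less of each RNA per cell cannot be told apart.

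**Figure D2:**
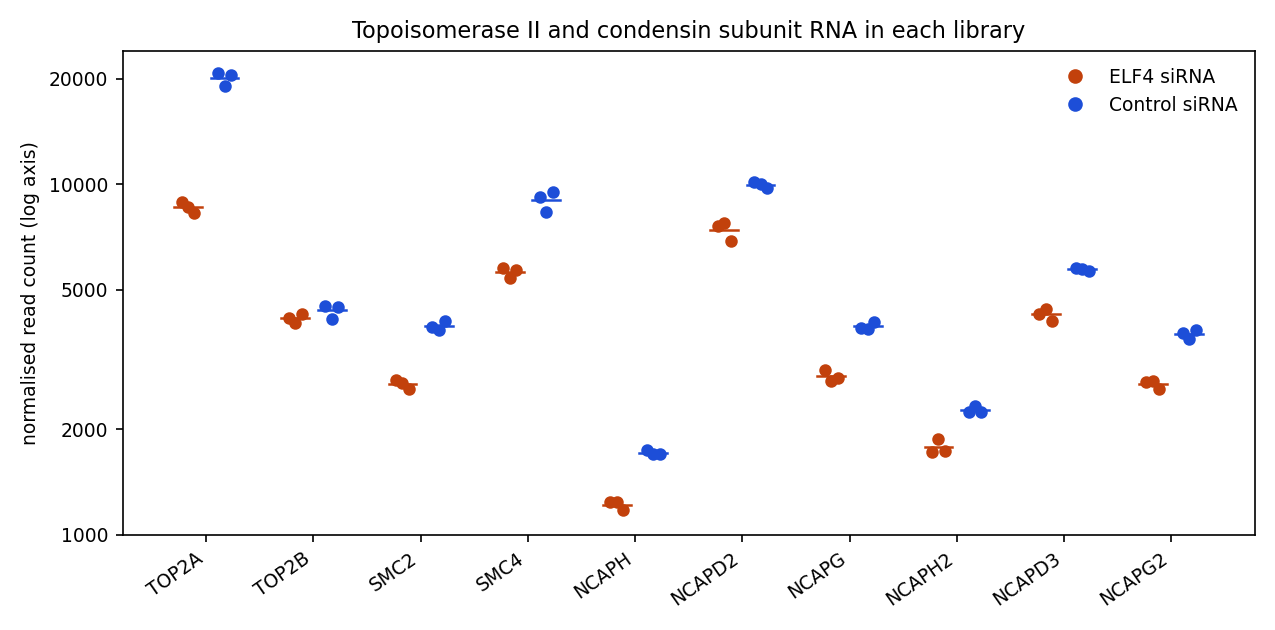
Normalised read count (log axis) of the 10 members in each of the 3 ELF4 siRNA libraries (left, orange) and 3 control siRNA libraries (right, blue), with a line at each mean. TOP2A is the most separated, at 8277 to 8878 against 19099 to 20843, and TOP2B is the member whose groups overlap.

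TOP2A was the member that fell furthest. It had 8878, 8613 and 8277 normalised reads in ELF4 siRNA libraries, against 20843, 19099 and 20452 in control siRNA libraries. The groups lay far apart, with the highest ELF4 siRNA library below the lowest control library. The means were 8589 ± 301 in ELF4 siRNA cells and 20131 ± 915 in control cells (SD, n = 3 each), so that 42.7% of the control level was left. The log2 fold change was -1.23 (SE 0.043, 95% interval -1.32 to -1.14, limma adjusted p = 3.07e-10). It was the 92nd lowest of all 20339 tested genes and the 6th lowest of the 5682 with a mean of at least 1000. Its 3′ UTR, 1003 bases long in the principal GENCODE 29 transcript, held 2 matches of ACCTGTC. This word was chosen with earlier results of these libraries known, so its counts are a description and support nothing about the fall.
TOP2A, 3′ UTR position 667, the word in capitals: ttcagctcttgACCTGTCccctctggctg
TOP2A, 3′ UTR position 865, the word in capitals: actttgttaagACCTGTCtacattgttat
The other 9 members had 0 matches of this word. At least 2 matches of ACCTGTC occurred in 1.18% of the 12466 tested genes with an annotated 3′ UTR. Of the 1858 whose 3′ UTR was within 25% of the length of that of TOP2A, 0.377% had them. A second word, CCTGTCA, was searched as well and had 0 matches in TOP2A and in the other 9 members. It occurred in 12.8% of the same 12466 genes. The 3′ UTRs of the other members ran from 97 bases (NCAPH2) to 2094 (SMC2), and a short one has less room for a match.

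TOP2B, the paralog, was the member not called. It had 4163, 4025 and 4271 normalised reads in ELF4 siRNA libraries, against 4506, 4125 and 4471 in control siRNA libraries. The groups overlapped, with control replicate 2 below 2 of the 3 ELF4 siRNA libraries. The log2 fold change was -0.07 (95% interval -0.17 to 0.02, limma adjusted p = 0.214), and its sign turned to 0.02 under upper-quartile scaling. Without control replicate 2 it was -0.11 with an adjusted p of 0.0371, so that this library decides the call. The intervals of TOP2B and TOP2A did not overlap.

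The 2 shared ATPase subunits came next. SMC4 had 5759, 5418 and 5711 normalised reads in ELF4 siRNA libraries, against 9171, 8335 and 9494 in control siRNA libraries. That was 62.5% of the control level, with a log2 fold change of -0.68 (95% interval -0.78 to -0.57, adjusted p = 1.09e-07), the largest fall among the condensin genes. SMC2, its partner in the ring, had 2761, 2713 and 2598 normalised reads in ELF4 siRNA libraries, against 3915, 3846 and 4085 in control siRNA libraries. It stood at 68.1% of control, at a log2 fold change of -0.55 (adjusted p = 2.08e-07). The groups did not overlap for either gene.

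Of condensin I, all 3 specific subunits fell. NCAPD2, a HEAT-repeat subunit, had 7626, 7747 and 6871 normalised reads in ELF4 siRNA libraries, against 10132, 9999 and 9762 in control siRNA libraries. Its ELF4 siRNA libraries were the more spread, with replicate 3 lowest, and its log2 fold change was -0.43 (adjusted p = 4.57e-06). NCAPG, the other HEAT-repeat subunit, had 2954, 2749 and 2803 normalised reads in ELF4 siRNA libraries, against 3878, 3870 and 4046 in control siRNA libraries. Its log2 fold change was -0.47 (adjusted p = 9.37e-07). NCAPH, the kleisin that closes the ring, had 1235, 1238 and 1179 normalised reads in ELF4 siRNA libraries, against 1746, 1699 and 1694 in control siRNA libraries. It stood at 71.1% of control, at a log2 fold change of -0.49 (adjusted p = 1.08e-06), and no library of one group reached the other.

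Of condensin II, all 3 specific subunits fell as well. NCAPD3, the HEAT-repeat counterpart of NCAPD2, had 4255, 4416 and 4077 normalised reads in ELF4 siRNA libraries, against 5764, 5717 and 5656 in control siRNA libraries. The log2 fold change of NCAPD3 was -0.43 (adjusted p = 1.41e-06), and its control libraries were close together at 5713 ± 54.5 (SD, n = 3). NCAPG2, the counterpart of NCAPG, had 2730, 2752 and 2603 normalised reads in ELF4 siRNA libraries, against 3763, 3624 and 3849 in control siRNA libraries. The log2 fold change of NCAPG2 was -0.47 (adjusted p = 8.45e-07). NCAPH2, the kleisin, had 1718, 1872 and 1730 normalised reads in ELF4 siRNA libraries, against 2244, 2321 and 2241 in control siRNA libraries. It fell least of the condensin genes, at 78.2% of control and a log2 fold change of -0.36 (95% interval -0.46 to -0.26, adjusted p = 2.83e-05).

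The 8 condensin genes thus spanned log2 fold changes of -0.68 to -0.36, with a median of -0.47 for the 3 specific to condensin I and -0.43 for the 3 specific to condensin II. Their summed signal was 29039, 28906 and 27572 in ELF4 siRNA libraries, against 40614, 39411 and 40826 in control siRNA libraries, or 70.8% of control. The direction and the call of the 9 genes that fell held in all 16 alternative settings, upper-quartile scaling included. The size of the adjusted p did not hold. Limma without its trend gave these 9 genes larger values, from 0.000474 for TOP2A to 0.00499 for NCAPH2.

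**Figure D3:**
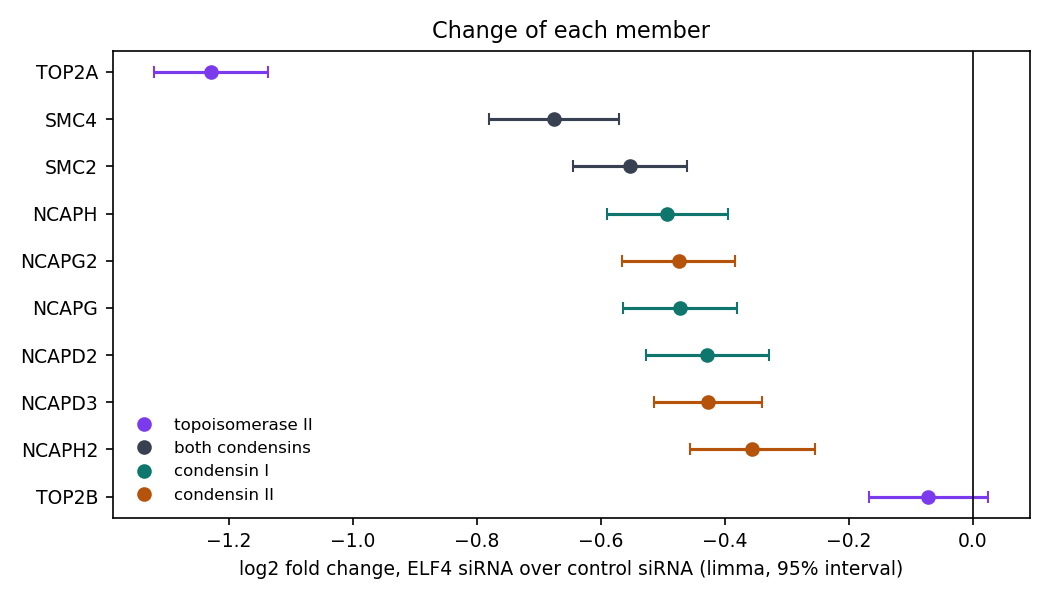
Log2 fold change of each member, ELF4 siRNA over control siRNA, with its 95% interval from limma, coloured by complex. TOP2A lies at -1.23, the 8 condensin genes between -0.68 and -0.36, and the interval of TOP2B, -0.17 to 0.02, crosses 0.

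Ratios within a library do not depend on how libraries were scaled, and 6 pairs were compared with a two-sided exact permutation test, whose smallest possible p is 0.1 with 3 libraries against 3. The ratio of TOP2A to TOP2B was 2.13, 2.14 and 1.94 in ELF4 siRNA libraries, against 4.63, 4.63 and 4.57 in control siRNA libraries (log2 difference -1.16, exact p = 0.1, 0.2 adjusted over the 6 pairs). The 2 isoforms were therefore closer to each other in the ELF4 siRNA cells in every library. The ratio of TOP2A to SMC4, a pair with separate roles in mitotic compaction, was 1.54, 1.59 and 1.45 in ELF4 siRNA libraries, against 2.27, 2.29 and 2.15 in control siRNA libraries (log2 difference -0.55, exact p = 0.1). TOP2A fell further than SMC4 in that sense, and the groups did not overlap. For the SMC pair itself, SMC2 to SMC4 was 0.479, 0.501 and 0.455 in ELF4 siRNA libraries, against 0.427, 0.461 and 0.430 in control siRNA libraries, and these groups overlapped (exact p = 0.2).

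Between the 2 condensins, the ratios of paralogous HEAT-repeat subunits overlapped between groups. NCAPD2 to NCAPD3 was 1.79, 1.75 and 1.69 in ELF4 siRNA libraries, against 1.76, 1.75 and 1.73 in control siRNA libraries (log2 difference 0.00, exact p = 1). NCAPG to NCAPG2 was 1.08, 0.999 and 1.08 in ELF4 siRNA libraries, against 1.03, 1.07 and 1.05 in control siRNA libraries (log2 difference 0.00, exact p = 1). The kleisins were the pair that separated. NCAPH to NCAPH2 was 0.719, 0.661 and 0.681 in ELF4 siRNA libraries, against 0.778, 0.732 and 0.756 in control siRNA libraries (log2 difference -0.14, exact p = 0.1, 0.2 adjusted). Condensin I took 57.6%, 56.5% and 56.3% of the signal of the 6 non-SMC subunits in ELF4 siRNA libraries, against 57.2%, 57.2% and 56.9% in control siRNA libraries, a difference smaller than the spread between ELF4 siRNA libraries. These pairs other than TOP2A to TOP2B were chosen after the data had been seen.

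**Figure D4:**
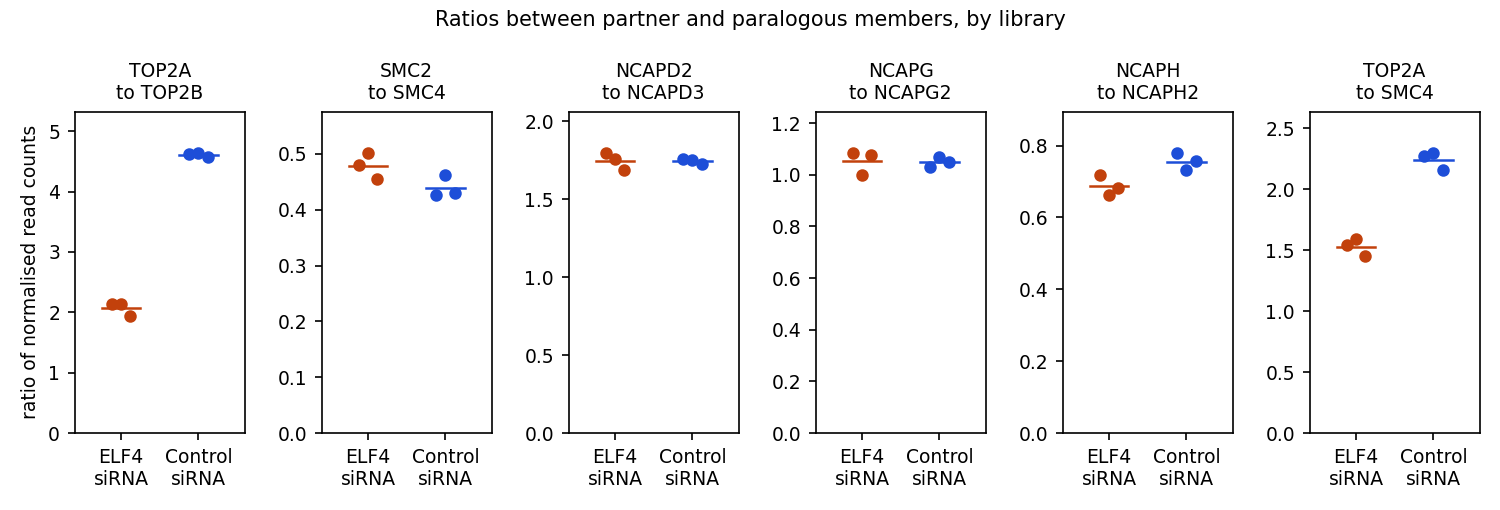
Ratio of normalised read counts within each library for 6 pairs of members, ELF4 siRNA (left, orange) and control siRNA (right, blue), with a line at the mean and axes from 0. The ratio of TOP2A to TOP2B is 1.94 to 2.14 in ELF4 siRNA libraries and 4.57 to 4.63 in control siRNA libraries, and the ratios of NCAPD2 to NCAPD3 and of NCAPG to NCAPG2 overlap.

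Levels between genes were compared per kilobase of the principal transcript. TOP2A was the highest member in both groups, at 1492 ± 52.3 per kilobase in ELF4 siRNA cells and 3496 ± 159 in control cells (SD, n = 3 each). Its lead over NCAPD2, the next gene in both groups, was 1.12-fold in ELF4 siRNA cells and 1.95-fold in control cells. NCAPD2 averaged 1336 ± 85.6 per kilobase in ELF4 siRNA cells and 1796 ± 33.8 in control cells, and SMC4 followed in both. After these, the order in ELF4 siRNA cells was NCAPH2 (871 ± 42.0), NCAPD3 (840 ± 33.5), TOP2B (771 ± 22.9), NCAPG2 (681 ± 20.3), NCAPG (608 ± 22.9), SMC2 (449 ± 13.97) and NCAPH (441 ± 12.1), each a mean level per kilobase with its SD. In control cells it was NCAPD3 (1129 ± 10.8), NCAPH2 (1114 ± 22.3), NCAPG2 (947 ± 28.8), NCAPG (844 ± 21.3), TOP2B (810 ± 39.0), SMC2 (659 ± 20.5) and NCAPH (620 ± 10.3). NCAPH2 and NCAPD3 overlapped in both groups, SMC2 and NCAPH in ELF4 siRNA cells, and NCAPG and TOP2B in control cells. These neighbours are therefore not ordered, and the order of the others holds only for the transcripts chosen. All annotated exons of NCAPD3 hold 9114 bases, against 5061 in its principal transcript, and those of SMC4 hold 8457 against 5471. The order by those longer lengths was not tested. TOP2B lay above NCAPG2 and NCAPG in every ELF4 siRNA library, whereas in control cells it lay below NCAPG2 and overlapped NCAPG. SMC2 and SMC4 pair in every condensin ring, and their mean RNA levels per kilobase were 449 and 1029 in ELF4 siRNA cells and 659 and 1645 in control cells.

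Related genes were counted in lists chosen by function, to be read beside the 24.4% of all tested genes that fell, the 37.7% that fell among those with a mean of at least 1000 and the 20.7% that rose. Of 9 tested topoisomerases of other types and their partners, 5 fell and 0 rose (median log2 fold change -0.27). BLM, the helicase that works with topoisomerase III, had a log2 fold change of -0.68 (adjusted p = 1.65e-06), and TDP2, which removes topoisomerase II trapped on DNA, had -0.65 (adjusted p = 2.98e-06). Of the topoisomerases in that list, only TOP3A was called, at -0.27, and the other genes that fell were partners. TOP1, the type I enzyme of transcribed DNA, had a log2 fold change of -0.07 and was not called. TOP1MT at 0.02 and TOP3B at -0.05 were not called either. Of 20 tested cohesin genes, 13 fell and 1 rose (median -0.18). The number that fell was 9 with limma without its trend and 10 under upper-quartile scaling, where 3 rose. The core ring genes SMC1A and SMC3 fell, at -0.14 and -0.12, and RAD21, the kleisin of that ring, fell at -0.45 (adjusted p = 3.28e-06). ESCO2, the acetyltransferase that makes cohesion in S phase, fell by 1.28 on the log2 scale (adjusted p = 7.79e-09), and ESPL1, the separase that cuts it, by 0.73 (adjusted p = 5.59e-08). Of 8 tested genes of the SMC5/6 complex, 6 fell and 0 rose (median -0.20), against 3 that fell under upper-quartile scaling, with SMC5 at -0.30 (adjusted p = 0.00104) and ANKRD32, a cofactor of the complex, at -0.51 (adjusted p = 5.95e-05).

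All 15 mitotic regulators of chromosome structure fell (median -0.47; 14 under upper-quartile scaling), as did all 20 DNA replication genes (median -0.43). BIRC5, the survivin subunit of the chromosomal passenger complex, had a log2 fold change of -1.69 (adjusted p = 1.17e-10) and CCNB1, the mitotic cyclin, -0.76 (adjusted p = 6.36e-09). In the replication list the clamp loader gene RFC5 stood at -0.86 (adjusted p = 2.32e-08) and the sliding clamp gene PCNA at -0.54 (adjusted p = 6.01e-08). MKI67, the marker of cycling cells, had 10483, 11372 and 10627 normalised reads in ELF4 siRNA libraries, against 11985, 13178 and 12276 in control siRNA libraries, a log2 fold change of -0.20, the smallest fall in its list. Of 18 neuronal differentiation genes 13 rose and 1 fell (median 0.21). Of all tested genes 20.7% rose, as did 1441 of the 5682 with a mean of at least 1000. The number of these 18 neuronal genes that rose was 9 without the trend and 10 without ELF4 siRNA replicate 1 or replicate 3. They were led by DCX, which binds microtubules in migrating neurons, at 1.43 (adjusted p = 5.89e-11) and GAP43, a growth cone protein, at 0.78 (adjusted p = 4.68e-09). TUBB3, a neuronal tubulin, was the gene of that list that fell, at -0.84.

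**Figure D5:**
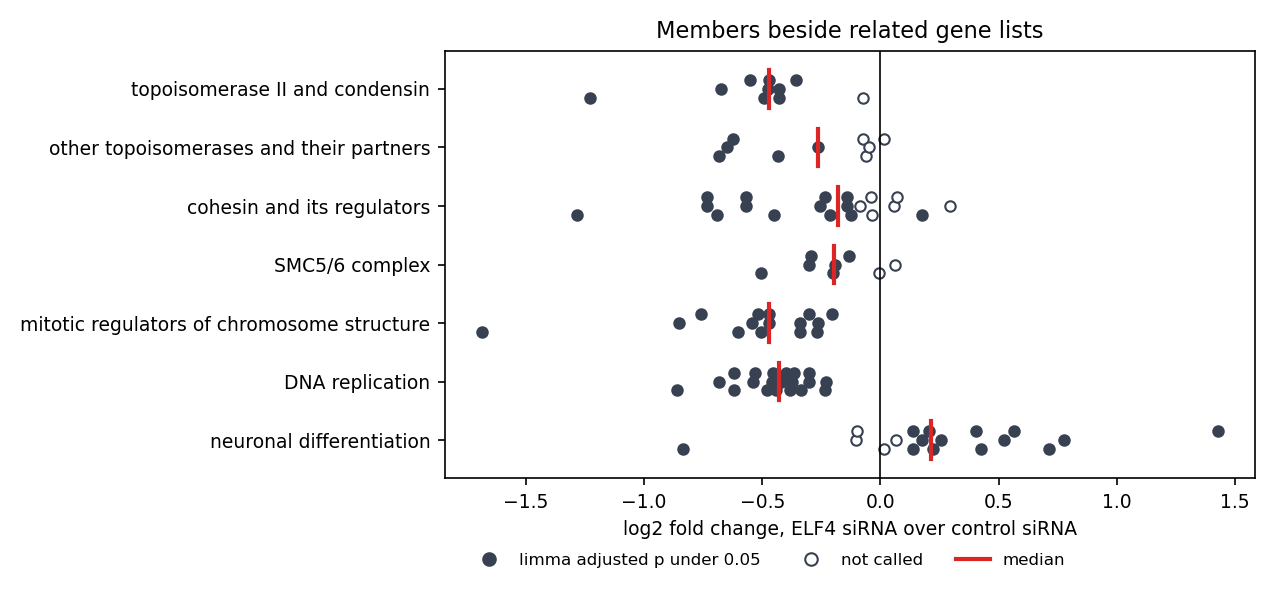
Log2 fold change, ELF4 siRNA over control siRNA, of each tested gene in 7 lists, filled where the limma adjusted p was under 0.05, with a red line at the median. The members, the mitotic regulators and the DNA replication genes have medians of -0.47, -0.47 and -0.43, and the neuronal list has a median of 0.21.

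The cell line carried its adrenergic neuroblastoma markers in all libraries, with a sum of 245811 to 266064 normalised reads in ELF4 siRNA libraries and 212112 to 226863 in control siRNA libraries, 3 of 10 having risen and 3 fallen. CHGA and CHGB, the secretory granule proteins, were the first of these, at log2 fold changes of 0.55 and 0.50. Markers of other cells had lower sums. Fibroblast markers summed to 2705 to 3012 in ELF4 siRNA libraries and 1782 to 1831 in control siRNA libraries. Of 4 tested, 3 rose. DCN, at a log2 fold change of 0.83, averaged 1722 normalised reads in ELF4 siRNA cells and 968 in control cells. LUM, at 0.31, averaged 682 and 548 in the same order. Both lay above the adrenergic marker TH, which averaged 423 and 394. COL1A1, at 0.48, averaged 385 and 273. COL1A2 reached at most 4.57 normalised reads and was at 0 in control replicate 3. The Schwann cell markers S100B and SOX10 summed to 86.4 to 100.4 in ELF4 siRNA libraries and 56.7 to 69.7 in control siRNA libraries, and S100B, the 1 of the 2 that was tested, rose at 0.51. Blood cell markers summed to 31.9 to 48.3 in ELF4 siRNA libraries and 46.8 to 53.7 in control siRNA libraries, with PTPRC at 1.06 and CD14 at -1.24. The part of these cell types in the changes of the members was not tested.

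Across the 6 libraries, and among the 5682 genes with a mean of at least 1000, the profiles most like that of TOP2A were those of HSPA9 (Pearson r = 0.9998), KLF6 (0.9998) and ADAMTS3 (0.9996). Their log2 fold changes were -0.41, -0.27 and -1.22, so that likeness of profile did not mean a like size of change. Those most like TOP2B were CPSF2 (0.994), ELAVL4 (0.989) and ATP6AP2 (0.989), of which none was called. These coefficients describe 6 points in 2 groups that share libraries and scaling.

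Some members share exon bases with a gene on the other strand in GENCODE 29, and reads from the 2 cannot be told apart where strand is not used in counting. LCORL covers 33.1% of the exon bases of NCAPG, and it had 618 ± 15.8 normalised reads in ELF4 siRNA cells and 743 ± 73.9 in control cells (SD, n = 3 each), well below NCAPG. TRIM59 covers 18.5% of those of SMC4 and had about 3.63 normalised reads in ELF4 siRNA cells and 3.80 in control cells. JAM3, which covers 5.10% of those of NCAPD3, had a log2 fold change of -0.45, near the -0.43 of NCAPD3. VPS26B, which covers 2.73% of them, rose at 0.17 (adjusted p = 0.00318). Both were expressed near the level of NCAPD3, which averaged 4249 in ELF4 siRNA cells and 5713 in control cells. JAM3 averaged 3554 and 4848, and VPS26B 4292 and 3814, in the same order. Their part in the count of NCAPD3 was not tested. MRPL51, which covers 7.49% of those of NCAPD2, averaged 2752 in ELF4 siRNA cells and 3214 in control cells, a log2 fold change of -0.22. IFT80, which covers 7.18% of those of SMC4, averaged 291 and 266, had 0.13 and was not called. The pseudogene NCAPD2P1 had 34.1, 42.7 and 33.1 normalised reads in ELF4 siRNA libraries, against 43.3, 43.4 and 43.9 in control siRNA libraries (adjusted p = 0.205).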

How the data were processed

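PolyA RNA of BE-(2)-C cells was sequenced in 3 ELF4 siRNA and 3 control siRNA libraries, 48 hours after siRNA. The authors deposited 1 table of normalised read counts (a signal: per-library size factors had been divided out). Of its 26906 rows, 2148 carry joined gene names, and 0 of these hold a member. Such rows were not left out of the tested genes. The build hg19 and the tools featureCounts, TopHat and DESeq2 are named per the submitters' processing notes. Tool versions, annotation, strandedness and filtering were not given in the sources used here. Whole reads were recovered by the step size of each library: 100% of values came out whole within 0.001.

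The deposited values were tested as log2(value + 1) with limma 3.58.1 (R 4.3.3, trend on) over both groups, for 20339 genes with at least 10 in at least 3 libraries, with Benjamini-Hochberg adjustment over all of them and a threshold of 0.05. Fold changes on this scale understate the change of low genes. edgeR 4.0.16 and DESeq2 1.42.0 were run on the recovered reads as alternatives; edgeR called 4807 genes lower and 4454 higher. The pipeline was tested on simulated data, with far fewer changed genes than were called here and the same dispersion for every gene. That simulation does not show how the fit behaves on these data. Levels per kilobase and 3′ UTRs used principal transcripts of GENCODE 29, and promoters RefSeq on GRCh38.p14, another build than hg19, so no coordinates were carried between them. Python 3.11.15 with scipy 1.17.1 did the permutation tests.

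Named were all members, ELF4, up to 2 genes per list with the smallest adjusted p, and the 3 genes of highest correlation with TOP2A and with TOP2B. Named outside that rule, after their values were seen, were TOP1, TOP1MT, TOP3A, TOP3B, SMC1A, SMC3, RAD21, MKI67, TUBB3, TH, COL1A1, COL1A2, the overlapping genes and the pseudogene. The members, the lists and the motifs were chosen with earlier results of these data known. Replicate numbers recur in both groups. Deviations of same-numbered libraries correlated weakly (0.029, 0.0748 and 0.041), though each library correlated best with its own number. The labels name no pairing, so none was assumed in the main fit, and a replicate block was run as an alternative. Some further Schwann cell markers are not reported here.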

Additional observations from a re-analysis of the deposited data

How the results depend on the processing

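Settings tried were pseudocounts of 0.5 and 5, no filter, a mean of at least 100, limma without its trend, TMM and upper-quartile scaling, edgeR, DESeq2, a replicate block and leaving out each library. The 9 members that fell did so in all 144 of 144 values. TOP2B turned to 0.016 under upper-quartile scaling, and ranged from -0.112 to -0.0487 with a library left out, where it was called without control replicate 2 at -0.112, giving 10 members that fell. With the replicate block, TOP2B had an adjusted p of 0.118, and 5346 genes fell and 4564 rose; every library correlated best with its own number, which is a hint from the data and not from the design. The block changed no call of a member.

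Of 320 list counts, 307 were within 1.5 times. Under upper-quartile scaling, 3 SMC5/6 genes fell, 3 cohesin genes rose and 0 adrenergic markers fell; the cause was not tested. Without the trend 0 adrenergic markers fell, and with a library left out 0 to 4 did. Neuronal genes that fell numbered 2 with the replicate block and 1 to 2 with a library left out. Cohesin genes that rose numbered 0 to 1 with a library left out. With a mean of at least 100, which removes the low genes, 0 blood cell markers fell, 0 rose, and 0 Schwann cell markers rose. The log2 ratios near 0 changed sign with a library left out, from -0.0204 to 0.0239 for NCAPD2 to NCAPD3 and from -0.0177 to 0.0403 for NCAPG to NCAPG2. With 3 libraries a group, the exact test of a ratio cannot go below 0.1.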
